A study of Homo sapiens with 6 samples.

Results

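The genes described here were 10 members of the AP-1 and immediate early gene group, namely FOS, FOSB, FOSL1 and FOSL2 of the FOS family, JUN, JUNB and JUND of the JUN family, and EGR1, IER2 and IER3. They were chosen as a gene family and picked out by gene symbol, with earlier results of these data known, and all 10 were found among the 27942 genes of the count table. HCT116, an established human colon carcinoma line, was left untreated (NT, 3 libraries) or was exposed to 0.5 µM oxaliplatin, a platinum drug that forms adducts on DNA, for 24 h (OXA, 3 libraries). PolyA RNA was sequenced, and the comparison asks which mRNA levels differ after this exposure. The labels call the libraries of a group replicates and give each a number from 1 to 3. Nothing in the labels states that they came from separate experiments, so the p-values measure the spread between these libraries, which may be partly technical.

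AP-1 is a pair of basic leucine zipper (bZIP) proteins, usually 1 of the FOS family and 1 of the JUN family, that binds a short DNA element and regulates genes of proliferation, stress, invasion and cell death. FOS, FOSB, JUN, JUNB, EGR1, IER2 and IER3 are typical immediate early genes, whose transcription rises within minutes of a growth factor or stress signal and usually falls again soon after. FOSL1 (FRA-1) and FOSL2 (FRA-2) generally follow later, last longer and are often high in carcinoma cells, while JUND is expressed more steadily.

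The libraries held between 32979521 and 40967880 counts assigned to genes. All 7 epithelial markers examined (EPCAM, CDH1, KRT8, KRT18, KRT19, VIL1 and CDX2) passed the filter on low counts. Over 7 markers of other cell types the summed counts lay between 138 and 303 per library, mostly COL1A1 at 107 to 273, and the blood cell markers PTPRC, CD3E and CD14 had at most 3 counts in any library. CDKN1A and MDM2, established p53 targets that served as a check of the treatment, were higher in OXA by 2.93 and 2.22 on the log2 scale (edgeR adjusted p = 0.000445 for both). NT library 1 stood apart from the others. Among the tenth of genes with the highest GC content (61.4% or more), its median deviation from each gene's mean over the 6 libraries was -0.79 on the log2 scale, against -0.12 to 0.41 in the other 5 libraries. Results on the members that rest on this library are therefore given with and without it.

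Sequence near the start sites was taken from RefSeq windows of 300 bases (250 before the start and 50 from it, GRCh38.p14), which matched 8 of the 10 members. The windows were searched on both strands for the AP-1 site (TGACTCA or TGAGTCA), the cAMP response element CRE (TGACGTCA) and the CArG box, the core of the serum response element. The AP-1 site was present in 4.95% of 35116 windows in the table, the CRE in 1.85% and the CArG box in 1.29%. The 3 members with any match are printed 5′ to 3′ on the gene's strand, with the matched letters in capitals.
FOSL2 (chr2:28392851-28392879, + strand): tgccattgtagTGACTCAtctcgggcaga
JUND (chr19:18281803-18281834, - strand): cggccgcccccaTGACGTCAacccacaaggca
EGR1 (chr5:138465362-138465417, + strand): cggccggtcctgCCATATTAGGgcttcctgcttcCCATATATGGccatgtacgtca
The AP-1 site of FOSL2 was at position 5 counted from the RefSeq start. That start lies 410 bases downstream of the start of the FOSL2 locus in the annotation used for the loci given here, so that the site is 414 bases inside that locus, whereas for the other 7 members with a window the starts differed by at most 2 bases. The CRE of JUND began 200 bases before the start, and EGR1 had 2 CArG boxes, beginning 105 and 83 bases before the start. The windows of FOS, FOSB, JUN, JUNB and IER2 held none of these exact letters. Other spellings of the elements and sequence outside the windows were not searched, so that such elements may be present. FOSL1 and IER3 had no window. A match describes the sequence only, and occupancy was not measured.

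In the fit by group only, which does not pair the libraries, 2 of the 10 members were higher in OXA and none was lower. Both called in this fit belong to the FOS family: FOSL1 rose 1.99-fold and FOSL2 rose 2.12-fold. None of the 3 JUN genes, EGR1, IER2 or IER3 passed the test in this fit. Counts were tested by the quasi-likelihood method of edgeR, and p was adjusted by Benjamini-Hochberg over the 13727 genes that passed a filter on low counts, with a threshold of 0.05. All 10 members passed the filter. Over all tested genes 2.78% were called higher and 2.29% lower, which are 381 and 315 genes. With upper-quartile factors that split was 348 and 493 genes, and with library totals alone it was 350 and 511. The same 2 members were called under both of these scalings, and 6 of the 10 kept a positive and 4 a negative log2 fold change. The median log2 fold change over the members was 0.25 with all 6 libraries, beside 0.02 over all genes tested. It depended on NT library 1 and on GC content. The members on both sides of that median, IER3 and IER2, were at 0.33 and 0.18. Without NT library 1 they were at 0.21 and 0.095. With GC and length trends taken out of every library they were at 0.13 and -0.026. In that last fit 5 members had a positive and 5 a negative log2 fold change. At an unadjusted p under 0.05, edgeR counted 3 members higher and 1 lower, beside 10.7% and 11.1% of all tested genes. DESeq2 called 2 members higher and 0 lower after adjustment, beside 4.61% and 4.63%. With same-numbered libraries paired by a block term, edgeR called 3 members higher and 1 lower (EGR1), beside 12.1% and 10.9%. In bulk RNA a change in the share of cells that express a gene and a change in RNA per cell cannot be told apart.

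**Figure D1:**
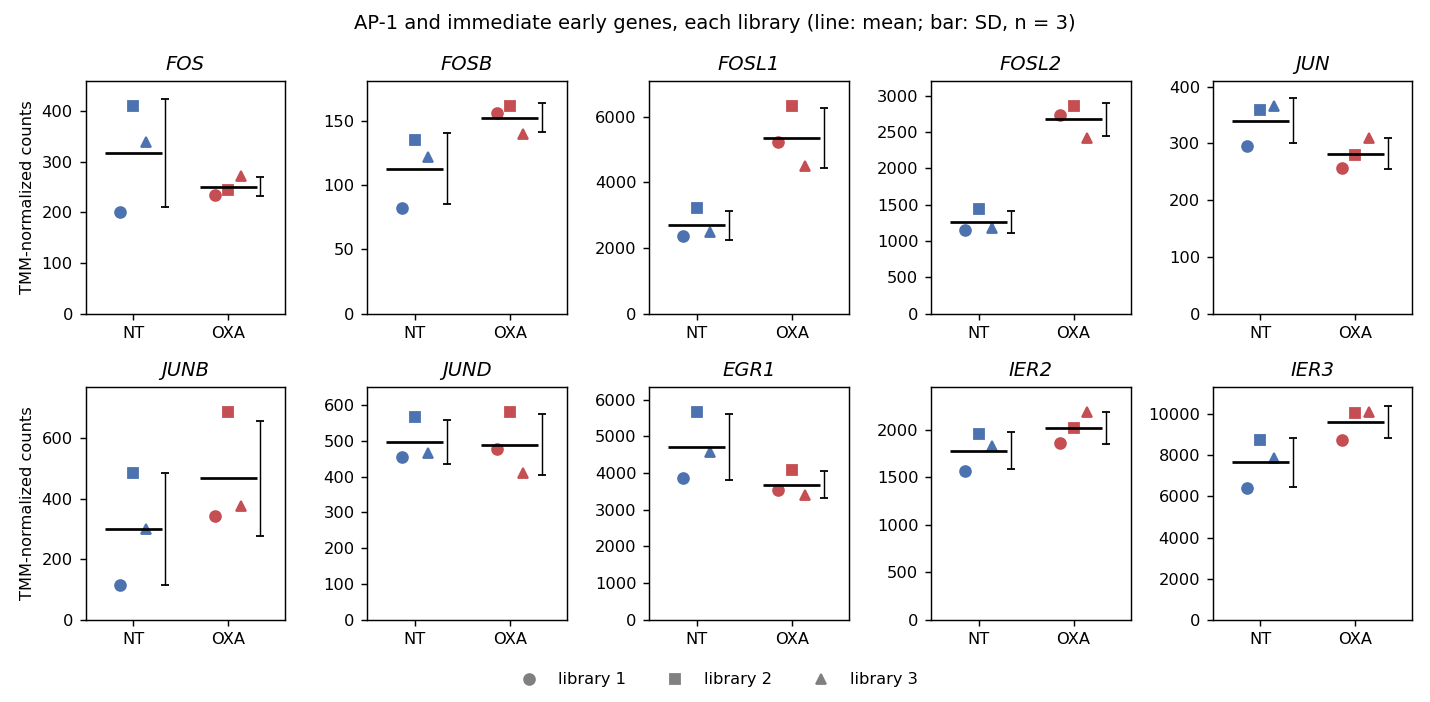
TMM-normalized counts (y axis, linear from 0) of each of the 10 genes in the 3 NT and 3 OXA libraries, with the library number as the marker shape, the mean as a line and the SD as a bar. The FOSL1 and FOSL2 points of OXA lie above all NT points, with FOSL2 between 2420 and 2859 against 1156 to 1438, while NT library 1 is the lowest NT point in all 10 panels.

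In the FOS family, FOSL2 (ENSG00000075426, chr2:28392448-28417317, + strand), which encodes FRA-2, had 1156, 1438 and 1185 normalized counts in NT libraries 1 to 3 and 2740, 2859 and 2420 in OXA libraries 1 to 3. The groups did not overlap, and the lowest OXA value was far over the highest NT value. The means were 1260 ± 155 and 2673 ± 227 (SD, n = 3 each), which gave a log2 fold change of 1.09 (SE 0.12, 95% interval 0.81 to 1.36, edgeR adjusted p = 0.00489). The call held in each of the 6 fits that left out 1 library, with log2 fold changes from 1.01 to 1.16 and edgeR adjusted p of at most 0.0396. Exons of the 2 other genes annotated at this locus, on either strand, did not overlap those of FOSL2.

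FOSL1 (ENSG00000175592, chr11:65892049-65900573, - strand), which encodes FRA-1, had 2381, 3209 and 2476 normalized counts in NT and 5246, 6333 and 4513 in OXA. The groups did not overlap here either, and OXA library 3 came closest to NT. The means were 2689 ± 453 and 5364 ± 915 (SD, n = 3 each), a log2 fold change of 1.00 (SE 0.16, 95% interval 0.62 to 1.37, edgeR adjusted p = 0.0178). This call was less stable than that of FOSL2 over the libraries. It was lost without NT library 3 (edgeR adjusted p = 0.0852), without OXA library 1 (0.0837) and without OXA library 2 (0.0690), while the log2 fold change stayed between 0.86 and 1.11. Neither FOSL gene passed a test against a change of 1.5-fold, where the edgeR adjusted p was 0.0747 for FOSL2 and 0.341 for FOSL1. After adjustment 0.364% of all tested genes passed that stricter test. At an unadjusted p under 0.05 it was passed by 2 of the 10 members, FOSL1 and FOSL2, and by 3.48% of all tested genes.

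FOS (ENSG00000170345, chr14:75278826-75282230, + strand), the prototype immediate early member, did not follow FOSL1 and FOSL2. It had 200, 410 and 339 normalized counts in NT and 235, 245 and 272 in OXA, so that the 3 OXA values lay inside the NT range. The means were 317 ± 107 and 251 ± 19.0 (SD, n = 3 each), a log2 fold change of -0.34 (SE 0.25, 95% interval -0.92 to 0.25, edgeR adjusted p = 0.498). NT library 1 alone lay below OXA. Without it, FOS was lower in OXA, at -0.58 on the log2 scale (edgeR adjusted p = 0.0479). That was the only 1 of the 6 fits leaving out a library in which FOS passed. Over these fits its log2 fold change ran from -0.58 to -0.14, the latter without NT library 2 (edgeR adjusted p = 0.776).

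FOSB (ENSG00000125740, chr19:45467995-45475179, + strand), an early-induced relative of FOS, had the lowest level per length of the 10 genes. It had 81.8, 135 and 121 normalized counts in NT and 156, 161 and 140 in OXA. The groups did not overlap, but NT library 2 and OXA library 3 were close to each other. The log2 fold change was 0.43 (SE 0.22, 95% interval -0.07 to 0.94) and missed the threshold (edgeR adjusted p = 0.300). The same-numbered pairs differed by 0.93, 0.26 and 0.20 on the log2 scale, the first with NT library 1, and without that library the log2 fold change was 0.25 (edgeR adjusted p = 0.435). FOSB, FOSL1 and FOSL2 were thus 3 members with every OXA library above every NT library, which held for 14.5% of all tested genes, and 0 members had every OXA library below, which held for 14.4%.

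Levels were compared between genes per length. On the scale of CPM (TMM-normalized counts relative to library size) per kilobase of exon, FOSL1 stood at 39.6 ± 6.68 in NT and 79.0 ± 13.5 in OXA, and FOSL2 at 4.89 ± 0.603 and 10.4 ± 0.881 (SD, n = 3 each). FOS stood at 2.76 ± 0.932 and 2.19 ± 0.166, and FOSB at 0.564 ± 0.139 and 0.763 ± 0.0558. FOSL1 therefore made up most of the FOS family mRNA in both conditions, with 82.8% in NT and 85.4% in OXA. In NT libraries 1 to 3, FOSL1 and FOSL2 together held 94.8%, 92.5% and 92.0% of the family level, which compares with 96.9%, 97.3% and 96.1% in OXA libraries 1 to 3. All 3 OXA shares were above all 3 NT shares, a difference of 3.62 percentage points (two-sided exact permutation p = 0.1, the smallest that 3 against 3 libraries allow). The share of FOS went from 5.70% to 2.42%. As for the balance of FOSL1 and FOSL2, FOSL1 was 89.0% ± 0.415 of their joint level in NT and 88.3% ± 0.938 in OXA (SD, n = 3 each), a difference of -0.67 percentage points that was within the spread of the libraries (two-sided exact permutation p = 0.3).

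**Figure D2:**
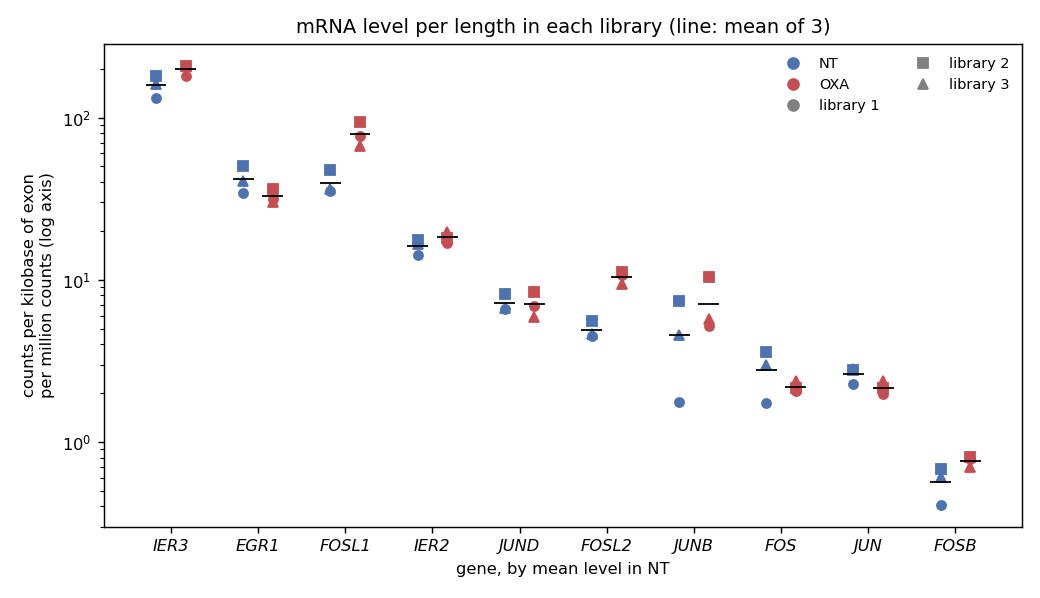
Level of each gene in each library, as CPM per kilobase of exon on a log axis, with NT and OXA side by side, the library number as the marker shape and the mean of 3 as a line. IER3 is highest and FOSB lowest in both groups, and FOSL1, at a mean of 39.6 in NT and 79.0 in OXA, passes EGR1 in OXA.

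None of the 3 JUN family genes passed the test, nor did any have an unadjusted p under 0.05, and DESeq2 called none. JUN (ENSG00000177606, chr1:58776845-58784048, - strand), the prototype partner of FOS, had 295, 360 and 366 normalized counts in NT and 256, 279 and 310 in OXA. NT library 1 fell between the OXA values, so that the groups overlapped. The log2 fold change was -0.27 (SE 0.15, 95% interval -0.62 to 0.08, edgeR adjusted p = 0.352), with the same sign in the 3 same-numbered pairs of libraries (-0.20, -0.37 and -0.24). Without NT library 1 the log2 fold change of JUN was -0.36 (edgeR unadjusted p = 0.0317, edgeR adjusted p = 0.152).

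JUNB (ENSG00000171223, chr19:12791486-12793315, + strand), an early member that can oppose JUN, was the most variable gene of the group. It had 117, 485 and 299 normalized counts in NT and 342, 687 and 376 in OXA. In both groups library 2 was the highest and library 1 the lowest, and the groups overlapped. The means were 300 ± 184 and 468 ± 190 (SD, n = 3 each), and the log2 fold change of 0.64 had an SE of 0.48 and a 95% interval from -0.48 to 1.76 (edgeR adjusted p = 0.501). Within same-numbered pairs OXA was above NT by 1.55, 0.50 and 0.33 on the log2 scale. Leaving out 1 library at a time moved the log2 fold change from 0.26, without NT library 1, to 1.14, without NT library 2. JUNB shares 259 bases of exon with HOOK2 on the opposite strand, which had between 426 and 655 counts per library. The kit keeps strand, but the strand setting of the counting is not given in the sources used here.

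JUND (ENSG00000130522, chr19:18279694-18281622, - strand), the member known for steady expression, had 456, 566 and 466 normalized counts in NT and 477, 580 and 411 in OXA. These ranges overlapped widely. The log2 fold change was -0.02 (SE 0.16, 95% interval -0.40 to 0.36, edgeR adjusted p = 0.961), and its sign turned positive without NT library 2 and without OXA library 3. JUND had the highest GC content of the members, 69.9%. With GC and length trends taken out of every library, its log2 fold change was -0.43 (edgeR adjusted p = 0.398), and with the replicate block as well it was -0.35 (edgeR adjusted p = 0.0663).

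Among the other members, EGR1 (ENSG00000120738, chr5:138465479-138469303, + strand), a zinc finger transcription factor of the early growth response, had 3876, 5658 and 4569 normalized counts in NT and 3547, 4089 and 3409 in OXA. OXA library 2 exceeded NT library 1, and the other OXA values were below all NT values. The means were 4701 ± 898 and 3681 ± 359 (SD, n = 3 each), a log2 fold change of -0.35 (SE 0.15, 95% interval -0.70 to -0.01, edgeR adjusted p = 0.218). When same-numbered libraries were paired by a block term, the log2 fold change was -0.34 and passed (edgeR adjusted p = 0.0305). Without NT library 1 it was -0.47 and passed as well (edgeR adjusted p = 0.0421). That was the only 1 of the 6 fits leaving out a library in which EGR1 passed. Over these fits its log2 fold change ran from -0.47 to -0.23, with edgeR adjusted p of at most 0.451.

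IER3 (ENSG00000137331, chr6:30743199-30744548, - strand), a stress-induced gene that modulates cell survival, had 6394, 8754 and 7870 normalized counts in NT and 8735, 10066 and 10103 in OXA. OXA library 1 and NT library 2 nearly coincided, and the other OXA libraries were above all of NT. The means were 7673 ± 1192 and 9635 ± 779 (SD, n = 3 each), a log2 fold change of 0.33 (SE 0.13, 95% interval 0.03 to 0.63, edgeR adjusted p = 0.196). With the replicate block the log2 fold change was 0.34 and passed (edgeR adjusted p = 0.0173). Without NT library 1 it was 0.21 (edgeR adjusted p = 0.228). Exons of IER3 overlap those of IER3-AS1 by 440 bases and those of HCG20 by 85 bases on the opposite strand, and HCG20 had at most 8 counts per library.

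IER2 (ENSG00000160888, chr19:13150411-13154911, + strand), an early response gene of growth factor signaling, had 1563, 1955 and 1827 normalized counts in NT and 1858, 2014 and 2186 in OXA. The groups overlapped through OXA library 1. The log2 fold change was 0.18 (SE 0.12, 95% interval -0.09 to 0.45, edgeR adjusted p = 0.421), and without NT library 1 it was 0.095 (edgeR adjusted p = 0.608). Exons of 2 long non-coding genes on the opposite strand overlap those of IER2 by 946 and 662 bases.

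**Figure D3:**
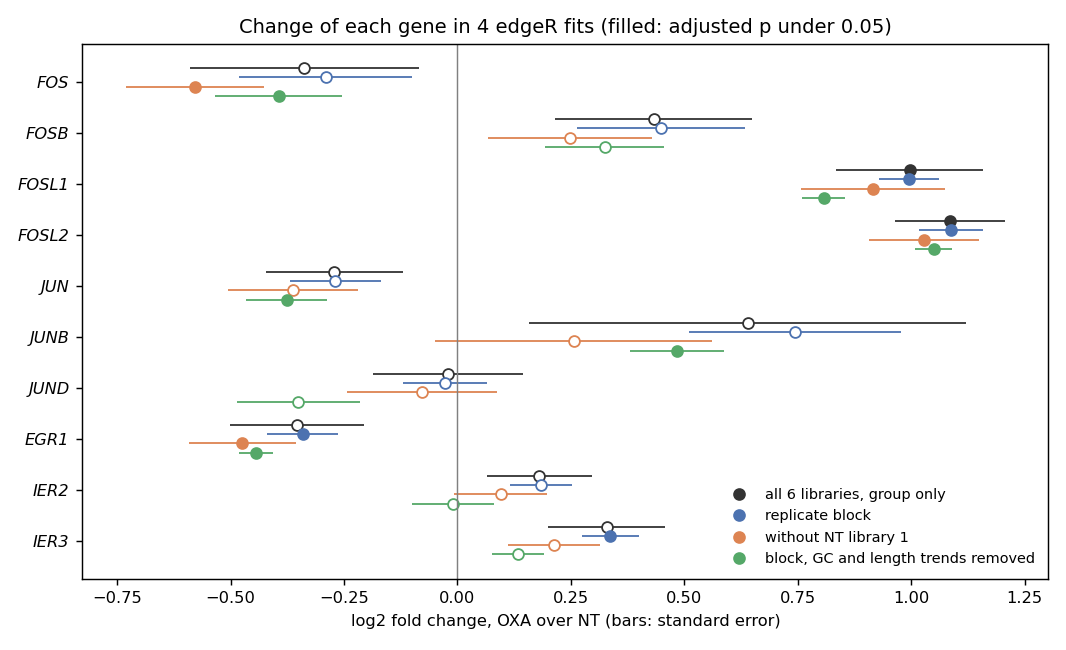
Log2 fold change of OXA over NT (x axis) for each gene in 4 edgeR fits, namely all 6 libraries by group only, with the replicate block, without NT library 1, and with the block and GC and length trends removed, with bars for the SE and filled points for an adjusted p under 0.05. FOSL1 and FOSL2 are filled in all 4 fits, and JUNB, at 0.64 with an SE of 0.48 in the fit by group only, has the longest bar.

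In order of level in NT, IER3 came first at 158 ± 24.5 CPM per kilobase of exon, followed by EGR1 at 41.6 ± 7.95 and FOSL1 at 39.6 ± 6.68 (SD, n = 3 each). The ranges of EGR1 and FOSL1 overlapped, so that their order was not resolved. IER2 at 16.1 ± 1.80 and JUND at 7.15 ± 0.879 came next, each separated from its neighbours in this order. The range of JUNB, from 1.77 to 7.37, still overlapped that of JUND, from 6.57 to 8.16, so that the order of these genes was not resolved. FOSL2, JUNB, FOS and JUN followed at 4.89, 4.56, 2.76 and 2.61, with neighbouring ranges that overlapped, and FOSB was last. In OXA, FOSL1 at 79.0 ± 13.5 was clear of EGR1 at 32.6 ± 3.18. FOSL2 at 10.4 ± 0.881, JUNB at 7.11 ± 2.89 and JUND at 7.05 ± 1.23 overlapped as neighbours, as did FOS at 2.19 ± 0.166 and JUN at 2.16 ± 0.206.

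The members shared a low value in NT library 1. It was the lowest NT library for 10 of 10 members, for 20 of 35 other immediate early genes tested and for 43.0% of all tested genes. The members also had a GC content above the median of tested genes, from 52.8% in FOS to 69.9% in JUND against 48.2%. Their loci were short, from 1350 bp for IER3 to 24870 bp for FOSL2, against a median of 32918 bp. JUN, JUNB and JUND have 1 exon in their canonical transcript, EGR1, IER2 and IER3 have 2, and the FOS family genes have 4.

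**Figure D4:**
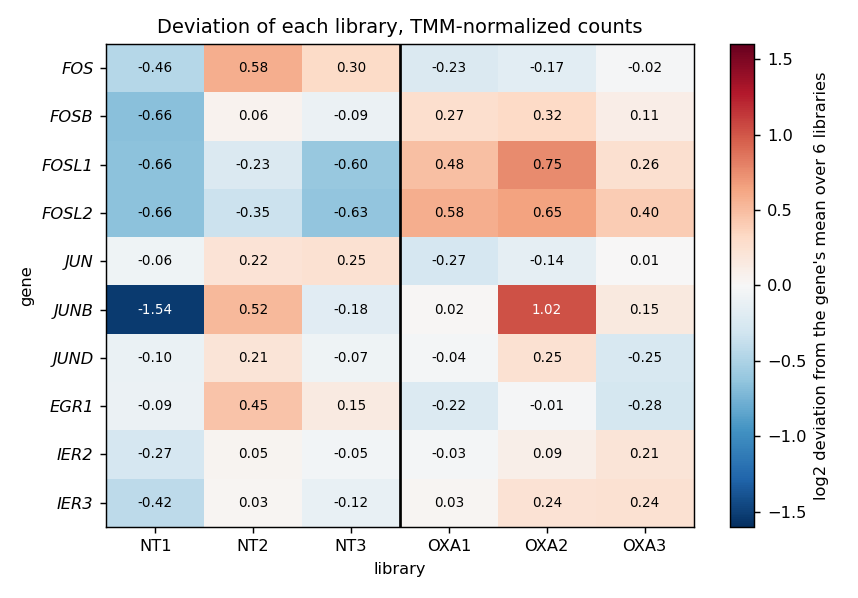
Log2 deviation of each library (columns) from the gene's mean over the 6 libraries, for each of the 10 genes (rows), in TMM-normalized counts. JUNB in NT library 1, at -1.54, is the lowest cell, and FOSL1 and FOSL2 are negative in all NT and positive in all OXA libraries.

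Because of this, the counts were also compared with the trend of each library on GC content and length removed, an alternative chosen after seeing the data. FOSL1 and FOSL2 stayed higher, at log2 fold changes of 0.80 and 1.05 (edgeR adjusted p = 0.00544 and 0.000230). EGR1 and JUN were then lower, at -0.45 and -0.38 (edgeR adjusted p = 0.00790 and 0.0472). That made 2 members higher and 2 lower, beside 9.29% and 9.74% of all tested genes. Without NT library 1, 2 members were higher (FOSL1 and FOSL2) and 2 lower (EGR1 and FOS), beside 4.49% and 4.11% of 13888 genes.

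The replicate numbers of NT and OXA went together across libraries, and a fit with the number as a block called 3 members higher (FOSL1, FOSL2 and IER3) and 1 lower (EGR1). That fit called 12.1% of all tested genes higher and 10.9% lower. With the block kept in the fit and the GC and length trends removed, 22.0% of all tested genes were called higher and 21.8% lower. In that fit FOSL1 (0.81), FOSL2 (1.05) and JUNB (0.48) were higher and EGR1 (-0.44), FOS (-0.39) and JUN (-0.38) lower on the log2 scale, with edgeR adjusted p from 1.46e-06 for FOSL2 to 0.0499 for FOS. IER3 did not pass there, at 0.13 on the log2 scale (edgeR adjusted p = 0.0925). FOSL1 and FOSL2 were the 2 members called higher in each of these fits. The part of GC content in the members' other differences was not tested beyond these fits.

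Of 12 other bZIP genes that can pair with the members or compete for their sites, 10 were tested. Of these, 1 was higher and 0 lower, beside 2.78% and 2.29% of all tested genes, with a median log2 fold change of 0.43. ATF3, a stress-induced repressor and activator that dimerizes with JUN proteins and is also a known p53 target, went from 431 ± 80.8 to 876 ± 102 normalized counts (SD, n = 3 each), a log2 fold change of 1.02 (SE 0.17, edgeR adjusted p = 0.0185). It passed in 1 of the 6 fits that left out a library. At an unadjusted p under 0.05, edgeR counted 4 of these genes higher and 1 lower, beside 10.7% and 11.1% of all tested genes. DESeq2 called 1 higher and 0 lower, beside 4.61% and 4.63%. The block fit called 5 higher and 1 lower, beside 12.1% and 10.9%. BATF and MAF had 0 counts in every library.

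Among 36 other immediate early genes, 35 were tested, of which 6 were higher and 2 lower, beside 2.78% and 2.29% of all tested genes. The median log2 fold change of the list was 0.30. The 4 with the largest rise were BTG2, an antiproliferative gene, the polo-like kinases PLK3 and PLK2, and HBEGF, an EGF receptor ligand. BTG2 went from 1119 ± 74.3 to 4185 ± 309 normalized counts (SD, n = 3 each), which is 1.90 on the log2 scale (edgeR adjusted p = 0.000445). PLK3 rose by 1.56, PLK2 by 1.20 and HBEGF by 0.82 on the log2 scale (edgeR adjusted p = 0.00876, 0.00247 and 0.0200). BTG2, PLK2 and PLK3 are examples of known p53 targets that are also early genes. The other called genes were not checked for this, and p53 control was not tested for any of them. Those that fell were DUSP6, an ERK phosphatase induced by ERK signaling, and ZFP36L2, an mRNA decay factor, at -0.52 and -0.55 (edgeR adjusted p = 0.0127 and 0.0423). The other called genes, IER5 and DUSP5, are named here after their values were seen. They were higher by 0.58 and 0.65 on the log2 scale (edgeR adjusted p = 0.0265 and 0.00768), and DUSP5 is an ERK phosphatase like DUSP6. BTG2 and PLK2 passed in all 6 fits that left out a library, PLK3 and DUSP5 in 5, DUSP6 in 2, and HBEGF, IER5 and ZFP36L2 in 1. The block fit called 16 higher and 2 lower, beside 12.1% and 10.9% of all tested genes. EGR4 had at most 6 counts in any library and was not tested.

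Among 24 kinases, transcription factors and regulators that act upstream of these genes, 1 was higher and 2 were lower. These counts stand beside 2.78% and 2.29% of all tested genes, and the median log2 fold change of the list was 0.05. ELK3, a ternary complex factor that acts with SRF at serum response elements, was higher by 0.44 on the log2 scale (edgeR adjusted p = 0.0298). MAPK9, which encodes JNK2, and MAP3K1, a kinase above JNK, were lower at -0.49 and -0.42 (edgeR adjusted p = 0.0279 and 0.0498). Each of these 3 passed in only 1 of the 6 fits that left out a library. The block fit called 6 higher and 7 lower, beside 12.1% and 10.9% of all tested genes.

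Of 19 AP-1 target genes examined, 13 were tested, and 3 were higher and 0 lower, beside 2.78% and 2.29% of all tested genes. The median log2 fold change of the list was 0.58. PLAU, the urokinase gene, went from 1374 ± 390 to 2715 ± 564 normalized counts (SD, n = 3 each), which is 0.98 on the log2 scale (edgeR adjusted p = 0.0483). EZR, which links actin to the membrane, and CCND1, the G1 cyclin D1, each rose by 0.68 on the log2 scale (edgeR adjusted p = 0.00987 and 0.00768). CCND1 passed in 5 of the 6 fits that left out a library, and PLAU and EZR in 2. At an unadjusted p under 0.05, edgeR counted 5 higher and 0 lower, beside 10.7% and 11.1% of all tested genes. DESeq2 called 4 higher and 0 lower, beside 4.61% and 4.63%. The block fit called 6 higher and 0 lower, beside 12.1% and 10.9%. The untested MMP1, MMP3, MMP10, MMP13, IL6 and IVL had at most 6 counts in any library. These genes have other regulators too, and AP-1 binding was not measured.

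**Figure D5:**
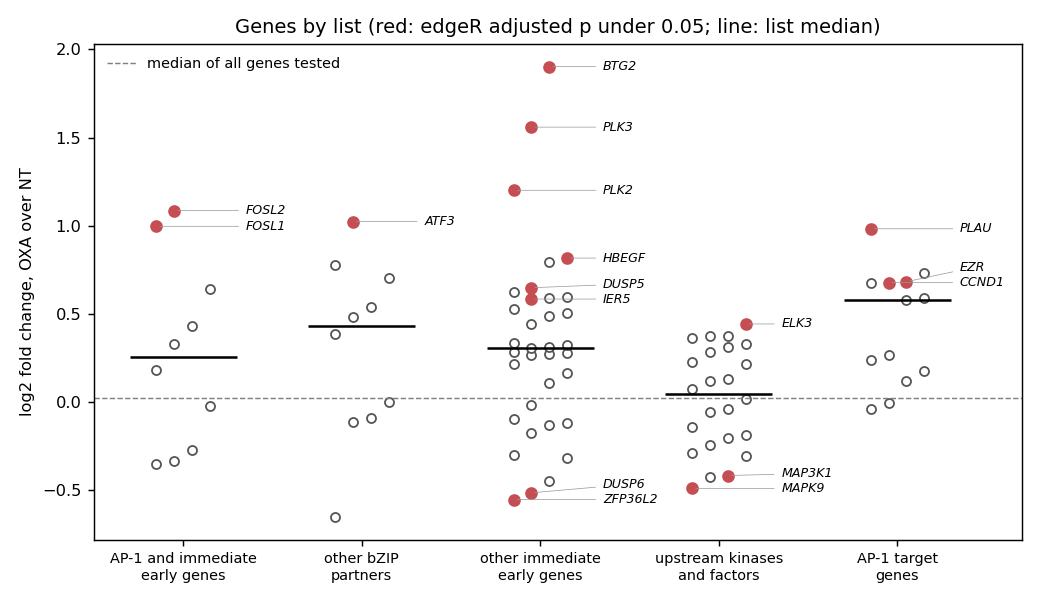
Log2 fold change of OXA over NT for every tested gene of the 5 lists, with genes at an edgeR adjusted p under 0.05 filled and named, each list's median as a bar and the median of all tested genes as a dashed line. The list medians are 0.25 for the 10 members, 0.43, 0.30, 0.05 and 0.58 for the other lists, and 0.02 for all tested genes. All are from the fit by group only, with NT library 1 included.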

How the data were processed

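The authors sequenced PolyA RNA of HCT116 cells in 6 libraries and deposited 1 table with raw counts per gene, and beside them a normalized signal of their own, which was used only for 1 alternative. The submitters' processing notes name Trimmomatic 0.32, STAR 2.7.5b, RSEM 1.3.3, DESeq2 2.13 and GRCh38. Since RSEM estimates counts, the deposited whole counts may be rounded estimates. No molecular identifiers are named in the sources used here, so PCR duplicates may be counted.

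Groups and replicate numbers came from the labels. Counts were filtered (filterByExpr, minimum count 10, minimum total 15), scaled by TMM and tested with the quasi-likelihood method of edgeR 4.0.16 in R 4.3.3, with adjustment over all tested genes. Alternatives used limma 3.58.1, DESeq2 1.42.0, other scalings and filters, a replicate block, and fits without each library. Exact permutation tests used scipy 1.17.1. Scripts were tested on simulated data. Lengths, GC content and loci came from GENCODE annotation of GRCh38. Normalized counts are TMM-scaled to the mean library. Library totals were 32979521 to 40967880, and no pair of libraries of the same group agreed within counting noise.

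Deviations from group means of same-numbered NT and OXA libraries correlated at 0.55, 0.54 and 0.31 across genes, all above the limit of 0.1, so the numbers, given by the labels, were taken to pair the libraries. The fit by group only was kept as the main fit because the study described a pairwise comparison and named no further covariate. Its SEs, intervals and calls leave this pairing out. With the block the SE of FOSL1 was 0.067 instead of 0.16, and that of JUNB 0.23 instead of 0.48.

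All 10 members are named. Of each other list, all called genes were named where 5 or fewer were called, and otherwise the 4 with the largest change in each direction. Members and lists were chosen with earlier results of these data known. The removal of GC and length trends without a block and the newer edgeR method were added after seeing the data. ATF7 has 2 identifiers, of which 1 was used. TGFB1 was not analysed here, and 2 further listed AP-1 target genes are not reported here, so that the counts of that list are those of the remaining genes.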

Additional observations from a re-analysis of the deposited data

How the results depend on the processing

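FOSL1 and FOSL2 were called in all 14 other settings except the test against a 1.5-fold change, where 0 members passed. The count of members called, 2 as reported, was 4 with the replicate block, 6 with the block and GC and length trends removed, 4 with those trends removed alone, and 1 to 4 when 1 library was left out. The count over all tested genes, 696 as reported, was 441 with the authors' gene-specific factors, 1268 with DESeq2, 3157 with the block, 6012 with the block and trends removed, 2612 with trends removed, and 85 to 1194 with 1 library left out (lowest without OXA library 1, highest without NT library 1). In the same order (block, block and trends, trends alone, 1 library left out) the other bZIP list gave 6, 7, 3 and 0 to 2, the other immediate early genes 18, 23, 14 and 3 to 9, and the upstream list 13, 16, 7 and 0 to 5. The AP-1 targets gave 6 with the block, 6 with the block and trends removed, and 0 to 4 with 1 library left out. With all 6 libraries these lists held 10, 35, 24 and 13 tested genes, in this order. Over all 13727 tested genes, the block called 12.1% higher and 10.9% lower. The block with trends removed called 22.0% and 21.8%, and trends removed alone 9.29% and 9.74%. With the block and trends removed, the lists had 5, 18, 7 and 6 genes higher and 2, 5, 9 and 0 lower. Whether any list exceeded these shares was not tested. With the authors' factors the bZIP list gave 0 and the upstream list 1. IER2 turned to -0.026 with trends removed and to -0.0092 with the block as well. JUND moved to -0.43 and -0.35 in these same fits, and ranged from -0.16 to 0.063 over the fits without 1 library. The causes were not tested.

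The replicate block changed the calls of EGR1 and IER3 and no other member's, and both share differences kept their sign under every length setting. In the fit by group only, the 95% interval of JUNB ran from -0.48 to 1.76 on the log2 scale, while the fit with the block and trends removed called it higher at 0.48.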
